A study of Mus musculus with 8 samples.

Results

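The 10 transcripts described here, Cd34, Cd24a, Sdc4, Sdc3, Vcam1, Itga7, Cdh15, Cxcr4, Ncam1 and Chodl, encode proteins on the surface of muscle stem cells (MuSCs), and several of them are used to sort these cells. They were chosen by name as surface proteins of MuSCs, with earlier results of these data known. They make up 10 of the 18877 gene symbols in the expression table. The cells were activated muscle stem cells (ASCs), which injury has drawn out of quiescence, and their RNA was sequenced. Libraries came from 4 wild-type and 4 mfn2-/- samples. Mfn2 encodes mitofusin 2, a fusion protein of the outer mitochondrial membrane. All mice carried a Dendra2 fluorescent protein that is sent to mitochondria, switched on in Pax7-expressing cells by the tamoxifen-dependent Cre recombinase Pax7-CreERT2, and in the mfn2-/- group the same recombinase removed Mfn2. Mice of both groups received tamoxifen at 75 mg/kg daily on 5 days, and 2 days later 50 µL of 1.2% BaCl2 in the tibialis anterior muscle. Cells were sorted 2 days post injury (2 dpi) as living, Dendra2-positive and CD34-negative. The sort therefore used the protein product of Cd34 in both groups, and every gated cell had to express the reporter. The labels do not say that each library came from a separate animal, so the p-values measure the spread between these libraries, which may be in part technical.

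Surface proteins hold a MuSC in its niche and carry the signals that wake it. Laminin in the basal lamina binds the integrin made of the Itga7 and Itgb1 products, and cadherins join the stem cell to the myofiber. Syndecans are membrane proteoglycans whose heparan sulfate chains bind growth factors and matrix. CD34 is a sialomucin known as a marker of quiescent MuSCs, and CD24 is a small mucin-like protein held in the membrane by a lipid (GPI) anchor. Immunoglobulin-family adhesion proteins (VCAM1 and NCAM1), the chemokine receptor CXCR4 and the lectin-like protein chondrolectin complete the group.

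Each of the 10 transcripts was read in all 8 libraries, from 30 reads of Cxcr4 in wild-type replicate 1 to 23022 reads of Sdc4 in mfn2-/- replicate 3, and all 10 passed the filter of a mean of at least 10 normalized reads. Sdc4, Cd24a and Vcam1 were higher in mfn2-/- ASCs, and Cd34 and Sdc3 were lower. The other 5 did not pass the test. Calls were made with limma over all 11754 genes that passed the filter, at a Benjamini-Hochberg adjusted p under 0.05, and changes are differences of log2(value + 1), mfn2-/- minus wild-type, which understate the change of weakly read genes. Among all genes tested, 10.4% were called, 3.99% as higher and 6.36% as lower. Groups did not overlap for 3 of the 10 surface transcripts above wild-type and 2 below, against 7.36% and 12.2% of all genes tested (19.5% in either direction). The median log2 change was 0.12 over the 10 surface transcripts and -0.16 over all genes tested.

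Before these results, some features of the libraries need to be given. Depth ran from 1880464 to 7508215 reads, with wild-type replicate 1 and mfn2-/- replicate 4 the shallowest, and total reads did not differ between groups by more than the libraries spread (two-sided exact permutation test, p = 0.943, smallest possible p 0.0286). The number of genes with a read was 9646 in mfn2-/- replicate 4 and 12613 to 15270 in the other libraries. In each group 2 libraries had reads of Y-linked genes and 2 had 0 such reads, so each change was also computed in each kind. The libraries with Y-linked reads were replicates 3 and 4 of wild-type and replicates 1 and 2 of mfn2-/-. Mfn2 itself fell from 229 ± 19.98 (SD, n = 4) to 126 ± 31.4 normalized reads without overlap, but its log2 change of -0.88 (SE 0.30) missed the threshold (limma adjusted p 0.0848).

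**Figure D1:**
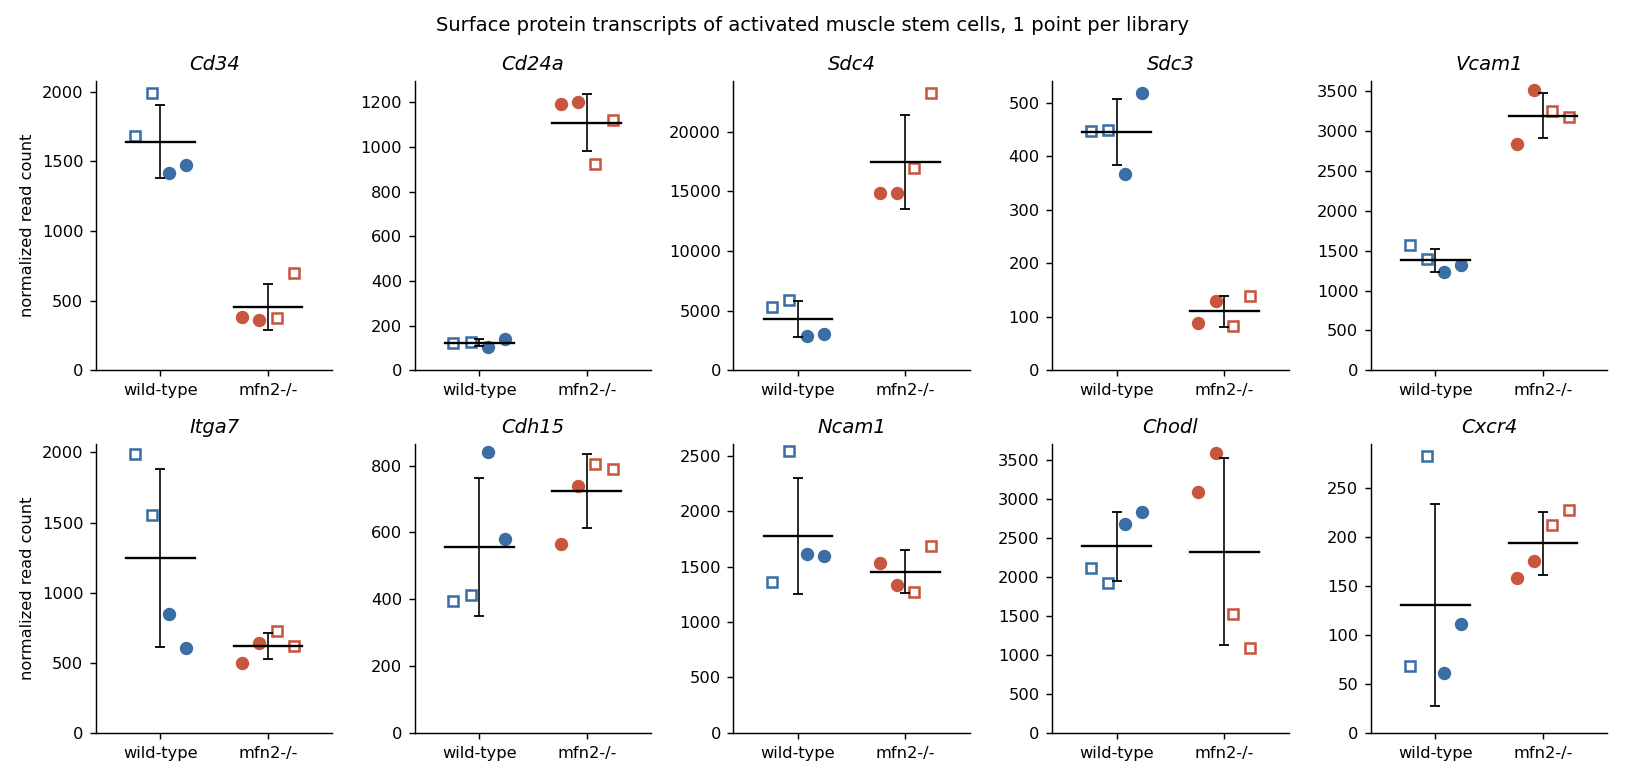
Normalized read count (vertical axes, linear and from 0) of the 10 surface protein transcripts in wild-type (blue) and mfn2-/- (red) ASCs, with 1 point per library, bars at the mean and whiskers of 1 SD. Filled circles are libraries with Y-linked reads and open squares those without. The groups stand apart in the panels of Cd34, Cd24a, Sdc4, Sdc3 and Vcam1 and overlap in the other 5.

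The cell type label was checked against markers. The MuSC transcription factor Pax7 gave 662 ± 45.9 normalized reads in the wild-type libraries and 715 ± 96.1 in those of mfn2-/- ASCs, and Myf5, an early myogenic factor, gave 207 ± 19.3 and 219 ± 40.9. Neither was called (limma adjusted p 0.780 and 0.896). Myod1, the factor of activated and committed MuSCs, and Des, the muscle intermediate filament gene, were higher in mfn2-/- ASCs, with log2 changes of 2.32 (SE 0.27, adjusted p 0.000146 by limma) and 1.91 (SE 0.32, adjusted p 0.00188). These were 2 of the 9 listed genes of MuSC identity, and the other 7 were not called. The 9 summed to 0.103 to 0.128% of all normalized reads in the wild-type group and 0.216 to 0.367% in the mfn2-/- group (exact permutation p = 0.0286, 0.0714 adjusted over 10 library measures). Markers of cells other than MuSCs were present too, and some moved with genotype. The summed level of 14 fibroadipogenic markers was 4.75 to 6.37% of all normalized reads in the wild-type libraries and 0.128 to 0.239% in those of mfn2-/- ASCs, with 12 of the 14 genes called lower and 0 called higher. The 9 tenocyte markers summed to 0.904 to 1.502% and 0.00736 to 0.01003%, and all 9 were called lower. For both sums the exact permutation test gave p = 0.0286 (0.0714 adjusted over 10 library measures). None of these 23 marker genes was at 0 in every library of a group. Endothelial markers held 0.0234 to 0.0368% and 0.0334 to 0.0428%, leukocyte markers 0.000927 to 0.00271% and 0.00231 to 0.00432%, with overlap between groups (exact p = 0.143 and 0.0857). Mural cell markers, a list that includes Des, held 0.150 to 0.167% and 0.223 to 0.337% (exact permutation p = 0.0286, 0.0714 adjusted over 10 library measures). Of its 8 tested genes, 2 were called higher and 2 lower. Schwann cell markers held 0.0181 to 0.0383% and 0.0153 to 0.0234%, myofiber markers 0.0239 to 0.0716% and 0.0675 to 0.0963%, and neutrophil and erythroid markers 0.000931 to 0.00165% and 0.000132 to 0.00127%, all with overlap. The leukocyte markers Emr1, Fcer1g, Cd3e and Cd79a were at 0 in every wild-type library. In bulk RNA fewer cells of a type and less RNA per cell cannot be told apart, and the part of these other cells in the results that follow was not tested.

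**Figure D2:**
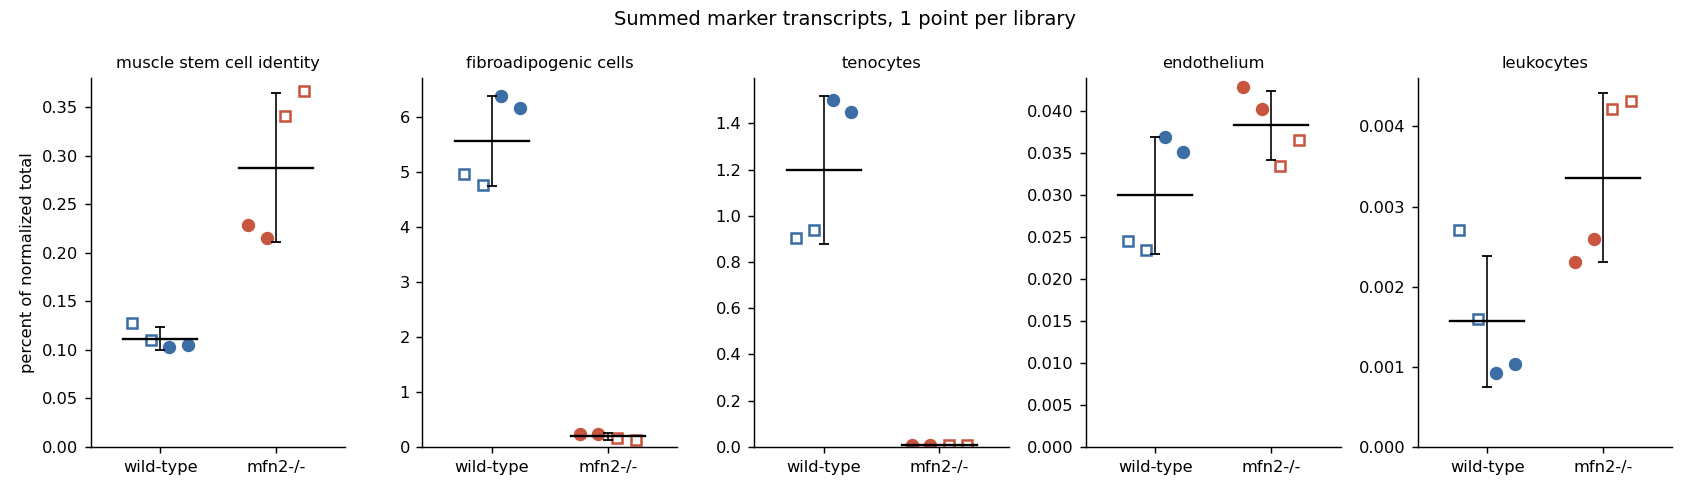
Summed level of 5 marker lists as a percent of each library's normalized total (vertical axes from 0, each with its own range), with 1 point per library, bars at the mean and whiskers of 1 SD. Fibroadipogenic and tenocyte markers were lower in all 4 mfn2-/- libraries, the sum of the 9 muscle stem cell identity markers, of which Myod1 and Des alone were called, was higher in all 4, and those of endothelium and leukocytes overlapped between groups.

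Cd34 encodes the sialomucin CD34. Its 4 wild-type libraries held 1685, 1992, 1415 and 1478 normalized reads, and the mfn2-/- libraries 383, 359, 374 and 700. The groups did not overlap, and mfn2-/- replicate 4 stood above the other 3 of its group. The mean fell from 1643 ± 260.0 to 454 ± 164 (SD, n = 4 each), a log2 change of -1.90 (SE 0.24, adjusted p 0.000242 by limma), and without mfn2-/- replicate 4 the change was -2.13. Libraries with and without Y-linked reads gave -1.96 and -1.84. CD34 is also carried by fibroadipogenic and endothelial cells. The summed fibroadipogenic markers, given above, were lower in mfn2-/- libraries, and the ranges of the summed endothelial markers overlapped between groups. The part of either cell type in the Cd34 change was not tested. Transcript of Cd34 was read in all libraries although the sorted cells were gated as negative for the protein, which the table does not measure.

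Cd24a encodes CD24. It had 123, 124, 106 and 142 normalized reads in the wild-type libraries and 1193, 1200, 923 and 1123 in those of mfn2-/- ASCs. Every mfn2-/- library lay far above every wild-type library, and the spread within each group was small beside that gap. Means of 124 ± 14.5 and 1110 ± 129 differed 8.97-fold, and the log2 change of 3.15 (SE 0.22) had the smallest p of all 469 genes called higher (limma adjusted p 8.48e-07). Libraries with and without Y-linked reads gave 3.28 and 3.03. Leukocytes also carry CD24. Their summed markers, at 0.00432% of the total or less in every library, had overlapping ranges. The means of these sums were 0.00157% in wild-type and 0.00336% in mfn2-/- libraries. The part of leukocytes in the Cd24a change was not tested. Part of the Cd24a transcript, 218 bases, matched the processed pseudogene Gm6212 at 96.8% identity, and Gm6212 is not among the genes in the table.

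The syndecan genes moved in opposite directions. Sdc4, which encodes a syndecan of focal adhesions, had 5288, 5871, 2908 and 3019 normalized reads in the wild-type libraries and 14886, 14829, 16965 and 23212 in those of mfn2-/- ASCs. The groups did not overlap, and within wild-type the libraries with Y-linked reads were the lower pair. The means were 4271 ± 1529 and 17473 ± 3953, 4.09-fold apart, with a log2 change of 2.08 (SE 0.27, adjusted p 0.000317 by limma). The change was 2.33 in libraries with Y-linked reads and 1.83 in those without, and these did not differ past the threshold (limma interaction, adjusted p 0.368).

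Sdc3, the other syndecan known from MuSCs, had 448, 450.1, 367 and 519 normalized reads in the wild-type libraries and 88.7, 130.4, 82.5 and 139 in those of mfn2-/- ASCs. The lowest wild-type library was well above the highest mfn2-/- library. Its mean fell from 446 ± 62.0 to 110.2 ± 28.8, which is 4.05-fold lower, with a log2 change of -2.03 (SE 0.29, adjusted p 0.000603 by limma). Both kinds of library gave a similar value, -2.01 with and -2.06 without Y-linked reads.

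Among the remaining syndecans, Sdc1 gave 253 ± 125 and 114 ± 62.6 normalized reads (log2 change -1.14, limma adjusted p 0.204), and Sdc2 gave 496 ± 148 and 88.6 ± 59.1 (log2 change -3.74, SE 1.22, adjusted p 0.0706). Sdc2 was at 0 in mfn2-/- replicate 4 and at 117 to 119 in the other 3. Neither passed the test. Per kilobase of exon, Sdc4 held 84.4 ± 5.98% of the summed level of the 4 syndecan genes in wild-type and 98.9 ± 0.507% in mfn2-/- libraries, and Sdc3 held 4.07 ± 1.39% and 0.269 ± 0.0702%. The ratio of Sdc4 to Sdc3 per kilobase ran from 13.7 to 30.7 in wild-type and from 267 to 483 in mfn2-/- libraries. These shares restate the separate changes and were not tested again.

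**Figure D3:**
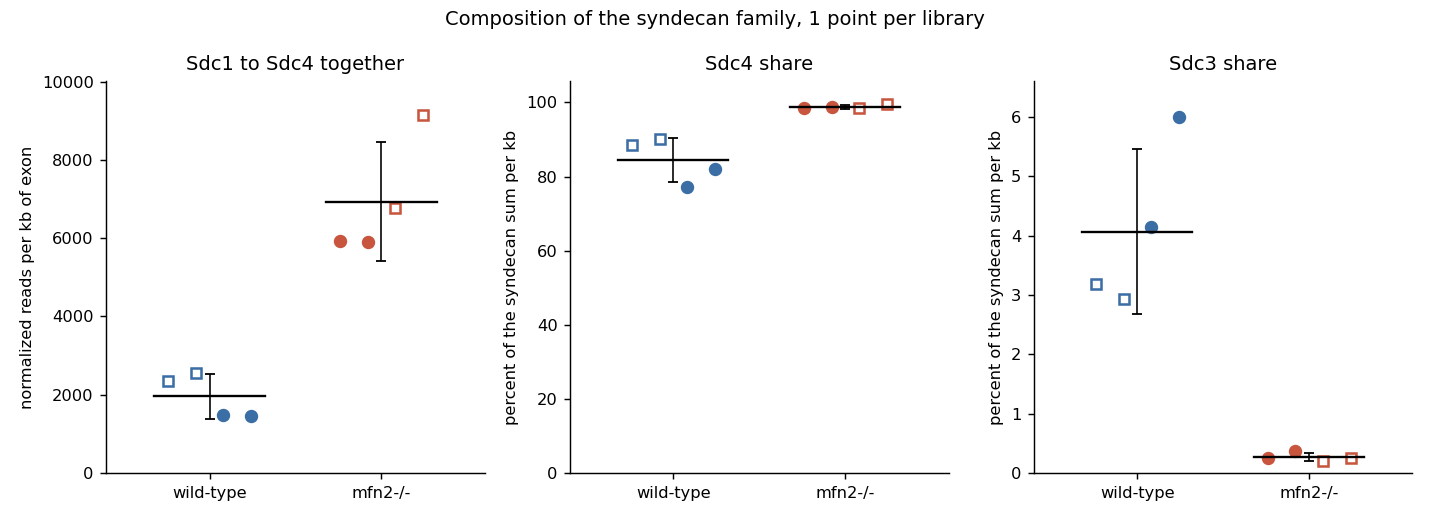
Left, summed level of Sdc1 to Sdc4 in normalized reads per kilobase of exon. Middle and right, share of Sdc4 and of Sdc3 in that sum in percent, with 1 point per library, bars at the mean, whiskers of 1 SD and all axes from 0. Sdc4 made up 77.1 to 90.1% of the sum in wild-type and 98.6 to 99.6% in mfn2-/- libraries.

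Because Sdc4, Sdc3 and Cd34 were called and RefSeq promoters of 250 bases before to 50 after a start were at hand for them, their promoters are shown with matches of the HIF core motif (ACGTG or GCGTG) and of an NF-kB motif in capitals. HIF1 is the transcription factor of the hypoxia response, and NF-kB that of inflammatory signals. Both strands were searched, and matches may overlap.

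Sdc4, GRCm38.p6, chr2:164443139-164443438, minus strand: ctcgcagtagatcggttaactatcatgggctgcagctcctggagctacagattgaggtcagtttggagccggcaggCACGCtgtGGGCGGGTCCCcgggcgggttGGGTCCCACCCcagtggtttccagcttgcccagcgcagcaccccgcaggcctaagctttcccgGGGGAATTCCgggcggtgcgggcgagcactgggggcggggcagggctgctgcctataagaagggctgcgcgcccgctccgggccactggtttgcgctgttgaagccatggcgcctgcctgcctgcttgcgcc
Sdc3, GRCm38.p6, chr4:130792287-130792586, plus strand: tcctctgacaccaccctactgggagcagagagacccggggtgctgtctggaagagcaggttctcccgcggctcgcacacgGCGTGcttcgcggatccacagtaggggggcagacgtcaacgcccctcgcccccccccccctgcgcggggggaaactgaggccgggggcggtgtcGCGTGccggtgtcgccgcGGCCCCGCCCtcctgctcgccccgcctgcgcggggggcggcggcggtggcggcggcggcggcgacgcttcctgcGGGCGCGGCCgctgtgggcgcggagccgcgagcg
Cd34, GRCm38.p6, chr1:194938571-194938870, plus strand: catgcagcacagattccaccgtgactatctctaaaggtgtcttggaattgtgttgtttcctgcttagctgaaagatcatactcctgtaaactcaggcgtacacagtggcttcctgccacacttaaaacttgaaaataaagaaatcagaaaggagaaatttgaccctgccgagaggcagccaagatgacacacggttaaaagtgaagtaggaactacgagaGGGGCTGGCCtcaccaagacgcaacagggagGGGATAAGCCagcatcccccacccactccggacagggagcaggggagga

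The Sdc4 promoter held 1 HIF core match and 5 NF-kB matches, the Sdc3 promoter 2 of each, and the Cd34 promoter 0 and 2. The NF-kB matches of Sdc4 started at bases 85, 86, 106, 107 and 169, so some of them cover the same stretch. Of all 32851 promoters, 43.8% held a HIF core and 50.8% an NF-kB match, so a match by itself is common. The E-box (CANNTG), the letters read by Myod1 and its relatives and present in 72.3% of promoters, was found 4 times each in the promoters of Cdh15 and Chodl and 0 times in those of Sdc4, Sdc3, Cd34 and Cxcr4. Of the 3 genes with a promoter that were not called, Cdh15 had 3 HIF core matches and 1 NF-kB match, Cxcr4 had 1 and 0, and Chodl had 0 and 1. The HIF core matches of Cdh15 started at bases 219, 220 and 281. Those at 219 and 220 cover the same stretch, where an E-box match also started. Promoters were found for 6 of the 10 genes, and no binding was measured in these libraries.

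Vcam1 encodes an immunoglobulin-family adhesion protein that binds the integrin of Itga4 and Itgb1. Its values were 1578, 1391, 1229 and 1322 normalized reads in the wild-type libraries and 2836, 3517, 3249 and 3176 in those of mfn2-/- ASCs. All 4 mfn2-/- libraries were above all wild-type libraries, and both groups were tight. Means of 1380.1 ± 148 and 3194 ± 280.3 were 2.31-fold apart, a log2 change of 1.21 (SE 0.17, adjusted p 0.00052 by limma). The value was 1.31 with and 1.12 without Y-linked reads. VCAM1 is also made by activated endothelium. The ranges of the summed endothelial markers overlapped, and their means were 0.0299% (wild-type) and 0.0383% (mfn2-/-) of all normalized reads. The part of endothelium in the Vcam1 change was not tested.

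Ncam1, the neural cell adhesion molecule of committed myoblasts, had 1365, 2543, 1610 and 1596 normalized reads in the wild-type libraries and 1534, 1330, 1267 and 1690 in those of mfn2-/- ASCs. The groups overlapped, and wild-type replicate 2 was the highest library. A log2 change of -0.26 (SE 0.21) was not called (limma adjusted p 0.490).

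Itga7 encodes the laminin-binding integrin subunit that is used to sort MuSCs. It had 1988, 1552, 848 and 607 normalized reads in the wild-type libraries and 497, 638, 727 and 621 in those of mfn2-/- ASCs. The wild-type libraries without Y-linked reads were above every mfn2-/- library. So was wild-type replicate 3, at 848, which had Y-linked reads. Wild-type replicate 4, also with Y-linked reads, lay within the mfn2-/- range at 607. The log2 change of -0.87 (SE 0.32) was not called (limma adjusted p 0.110). It was -0.35 in libraries with Y-linked reads and -1.38 in those without, a difference of 1.04 that did not pass the test over all genes (limma interaction, adjusted p 0.239). The call turned with the setting, since 4 of 23 alternatives passed, the presence of Y-linked reads as a term among them (log2 change -0.87, adjusted p 0.0332). Exons of Mettl7b overlap Itga7 on the other strand, and Mettl7b is not among the genes in the table.

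Cdh15 encodes M-cadherin, the cadherin between MuSC and myofiber. Its libraries held 396, 412, 841 and 581 normalized reads in the wild-type libraries and 564, 738, 806 and 790 in those of mfn2-/- ASCs. The highest library was wild-type and the groups overlapped. The log2 change was 0.43 (SE 0.26, adjusted p 0.327 by limma), with -0.12 in libraries with Y-linked reads and 0.98 in those without, where the mfn2-/- libraries were both above the wild-type ones. That difference of -1.10 did not pass over all genes (limma interaction, adjusted p 0.219).

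Cxcr4, the receptor of the chemokine CXCL12, was the weakest of the 10 by normalized reads in mfn2-/- ASCs apart from Sdc3. It gave 68.2, 282, 61.2 and 111 normalized reads in the wild-type libraries and 158, 175, 212 and 227 in those of mfn2-/- ASCs. Wild-type replicate 2 was the highest of all, while the other 3 wild-type libraries lay below every mfn2-/- library. With all libraries the log2 change was 0.83 (SE 0.46, adjusted p 0.290 by limma), and without wild-type replicate 2 it was 1.29 (adjusted p 0.0647), so neither passed.

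Chodl encodes chondrolectin, a membrane protein with a C-type lectin domain. It had 2122, 1927, 2685 and 2839 normalized reads in the wild-type libraries and 3094, 3585, 1528 and 1090 in those of mfn2-/- ASCs. Among libraries with Y-linked reads the mfn2-/- pair was higher than the wild-type pair, and among those without it was lower. The log2 change was -0.19 (SE 0.33, adjusted p 0.768 by limma) over all libraries, 0.27 with Y-linked reads and -0.65 without. The difference of 0.92 (SE 0.25) was not called (limma interaction, adjusted p 0.144). Of all genes tested, 1.47% passed that interaction test, and 6.42% showed the same lack of overlap in opposite directions.

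**Figure D4:**
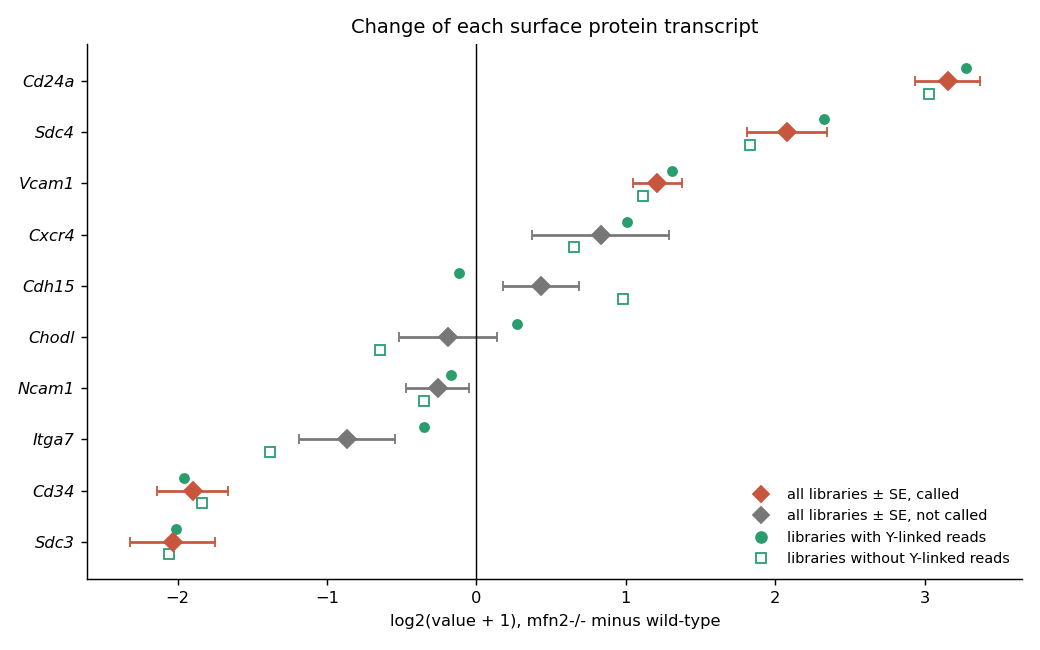
Difference of log2(value + 1), mfn2-/- minus wild-type (horizontal axis), for each of the 10 transcripts, with diamonds for all 8 libraries, bars of 1 SE, and smaller symbols for the changes within libraries with and without Y-linked reads. The 5 called transcripts (red diamonds) kept their direction in both kinds of library, while Chodl and Cdh15 had opposite signs in these.

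Levels were next compared between genes per kilobase of exon. In wild-type ASCs Sdc4 was the highest at 1677 ± 600.4 normalized reads per kilobase, followed by Chodl at 436 ± 79.8 and Cd34 at 225 ± 35.7. The ranges of these 3 did not meet. From Cd34 on through Ncam1 at 205 ± 60.2, Cdh15, Vcam1, Itga7, Sdc3 and Cxcr4 to Cd24a at 47.96 ± 5.61, each range overlapped the next. In mfn2-/- ASCs Sdc4 led again at 6860 ± 1552. Cd24a came next at 430.3 ± 50.1, with a range that overlapped that of Chodl at 423 ± 219, which in turn overlapped that of Vcam1 at 360.1 ± 31.6. Cd34 at 62.3 ± 22.5 and Sdc3 at 18.4 ± 4.801 were the lowest. Cd24a thus stood last of 10 in wild-type and next to Sdc4 in mfn2-/- libraries. Together the 10 transcripts took 0.298 to 0.391% of all normalized reads in the wild-type libraries and 0.610 to 0.788% in mfn2-/- libraries. Without Sdc4 the other 9 took 0.226 to 0.252% and 0.230 to 0.289%, which overlapped.

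Genes with the most similar pattern over the 8 libraries were found by the root mean square distance between log2 profiles, each centred on its mean, over the 5584 genes whose mean reached 100 normalized reads. Closest to Cd34 was Hspg2, which encodes perlecan, a heparan sulfate proteoglycan of basement membranes (distance 0.25), then Gpm6b and 1700025G04Rik (0.28 each). Sdc4 was closest to Akap2 (0.18), the transcription factor gene Ets2 (0.21) and Nfkb2, which encodes an NF-kB subunit (0.22). For Cd24a the nearest were the activin subunit gene Inhbb (0.53), Bcl3 (0.56) and Myod1 (0.60). Those distances were larger than the ones of Sdc4 and Cd34. The profiles were centred but not scaled, so a distance also holds any difference in the size of the change. Inhbb, Bcl3 and Myod1 had log2 changes of 2.77, 2.14 and 2.32, against 3.15 for Cd24a. Inhbb and Bcl3, with wild-type means of 49.1 and 84.3, reached the mean of 100 through the mfn2-/- libraries. Gpm6b, Cplx2 and Svil were nearest to Sdc3 (0.27 to 0.29), and Hnrnpa3, 2700050L05Rik and Pole4 to Vcam1 (0.10 to 0.15). Among the transcripts not called, Clec16a, Zw10 and Nf2 were nearest to Itga7, Slc35b1, Psmd1 and Smad4 to Cdh15, Igf2, Nek1 and Fgd5 to Ncam1, Ftsj3, Zfp407 and Ints8 to Cxcr4, and Lgr4, Ankrd50 and Cpne3 to Chodl. These distances are descriptions over 8 libraries that share 1 scaling.

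Ligands, partners and relatives of these surface proteins were then described from 7 lists with 131 genes, of which 128 were in the table and 111 passed the filter. Of these 111, 9 were called higher, 16 lower and 86 were not called, which is 22.5% called against 10.4% of all genes tested. The lists were chosen with earlier results of these data known, so these shares are not an independent comparison. Their median log2 change was -0.33. Fibroadipogenic and tenocyte markers, given above, were lower in the same mfn2-/- libraries. Which cells the transcripts of these lists came from was not tested.

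Of 28 tested syndecan, glypican and heparan sulfate genes, 3 were lower, 1 was higher and 24 were not called, with a median of -0.68. Gpc3, which encodes a glypican, fell from 2076 ± 860 to 63.1 ± 83.7 normalized reads (log2 change -5.84, SE 0.70, adjusted p 0.00016 by limma). Sulf2, which encodes an enzyme that takes sulfate off heparan sulfate outside the cell, had 407 ± 103 and 7.74 ± 7.98 (log2 change -6.28, SE 0.90). In mfn2-/- replicate 3 it was at 0, so the size of this fold depends on the pseudocount. Gpc6 fell as well, by 2.91 on the log2 scale. Hs3st3b1, which encodes an enzyme that adds sulfate to heparan sulfate chains, was the one member that rose, from 75.5 ± 21.2 to 479 ± 287 (log2 change 2.47, adjusted p 0.00338).

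Among integrin partners and relatives of Itga7 and Vcam1, 8 were tested, with 4 lower, 1 higher and 3 not called. Itgb1, the beta subunit that pairs with the Itga7 product, fell from 3390 ± 320.2 to 2130 ± 304 normalized reads (log2 change -0.68, SE 0.17, adjusted p 0.0256 by limma). Of the 3 laminin genes tested, 2 fell, Lama2 from 7475 ± 215 to 2558 ± 907.5 (log2 change -1.63) and Lama4 from 1191 ± 154 to 119.7 ± 43.2 (log2 change -3.37). Lama5, the third, had 323 ± 107 and 415 ± 161 and was not called (log2 change 0.35, adjusted p 0.544). Itga9 fell by 4.19 on the log2 scale. Icam1, an adhesion protein gene related to Vcam1, rose from 714 ± 170.1 to 1518 ± 373 (log2 change 1.09, adjusted p 0.00881). Itga4, which encodes the alpha subunit of the VCAM1 receptor, had 50.9 ± 23.5 and 6.08 ± 5.89 normalized reads and was not called (log2 change -3.23, SE 1.13, adjusted p 0.0925).

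In the CXCR4 list of 14 genes 2 were higher, 2 lower and 10 not called. Cxcl12, the ligand, gave 334 ± 70.6 and 272 ± 92.2 normalized reads (log2 change -0.33, limma adjusted p 0.525). Cxcr7, the older symbol of the scavenger receptor gene Ackr3, gave 307 ± 137 and 310.5 ± 126 (log2 change 0.01, adjusted p 0.992). The G-protein subunit gene Gnai3 rose by a log2 change of 1.14 and Adrbk1, a receptor kinase gene, by 1.04, while Rgs16, a brake on G-protein signals, fell by 1.25 on the log2 scale. The other gene called lower, Dpp4, encodes a protease that cuts CXCL12 and is named here after its values were seen, since its mean was under 100. It fell from 119 ± 30.7 to 1.29 ± 2.58 normalized reads (log2 change -6.21, SE 1.06, adjusted p 0.00227 by limma), and was at 0 in each mfn2-/- library but replicate 3, so this size too depends on the pseudocount.

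Of 9 cadherin and catenin genes tested, Cdh11 and Cdh2 were lower (log2 changes -4.35 and -2.24), Ctnna1 was higher (0.63), and 6 were not called. Ctnnb1, the beta-catenin gene, had 1159 ± 95.03 and 1079 ± 99.0 normalized reads (log2 change -0.10, limma adjusted p 0.749). Of 11 relatives of Ncam1 and polysialic acid genes, Mcam was lower (-1.27, adjusted p 0.0446) and 10 were not called, and the polysialic acid enzyme gene St8sia4 was below the filter. Of 12 sialomucin and GPI-anchored genes 3 were lower and 9 not called, with Podxl2 at -2.43 and Thy1, also known from fibroblasts, at -2.33. Podxl, a sialomucin gene related to Cd34, was not called (0.53, adjusted p 0.370).

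The list of 29 further MuSC surface genes had a median of 0.06, with 4 higher, 1 lower and 24 not called. Cd82, a tetraspanin gene, rose from 1238 ± 157 to 2637 ± 645 normalized reads (log2 change 1.07, limma adjusted p 0.00412), and Cd81, another tetraspanin gene, fell from 693 ± 145 to 268 ± 149.9 (log2 change -1.55, adjusted p 0.021). Odz4, which encodes a teneurin, rose by a log2 change of 1.17. The TWEAK receptor gene Tnfrsf12a rose by 1.64 (SE 0.48, adjusted p 0.0457), with 2.79 in libraries with Y-linked reads and 0.49 in those without.

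**Figure D5:**
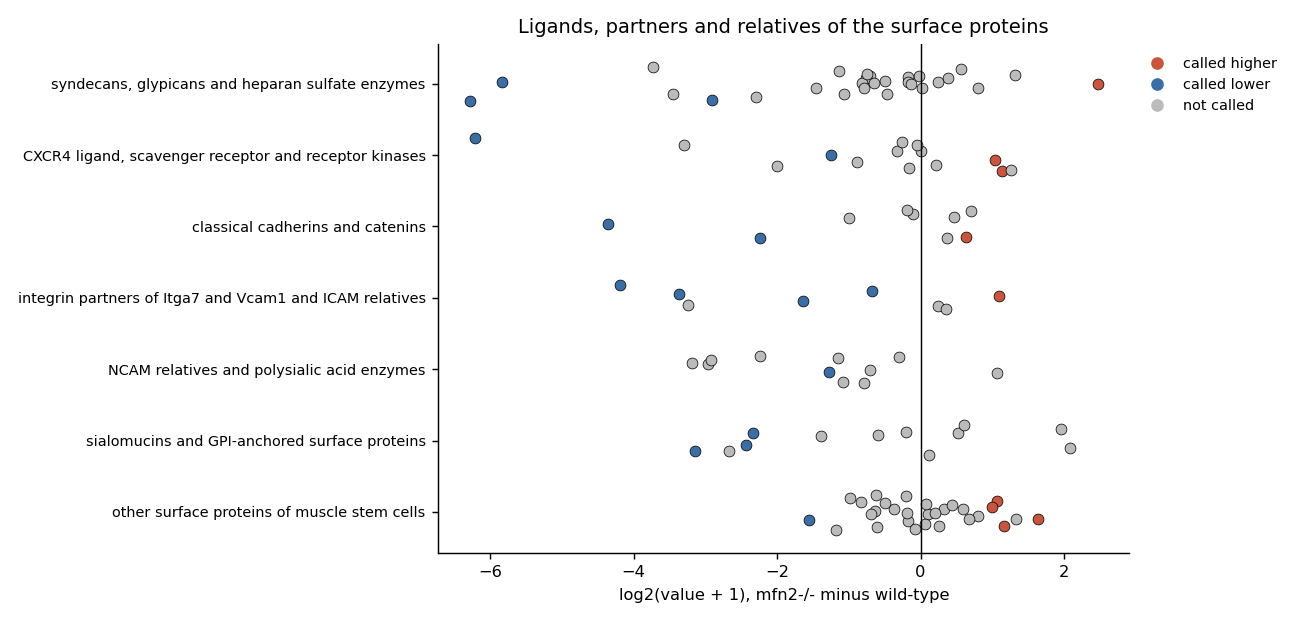
Difference of log2(value + 1), mfn2-/- minus wild-type (horizontal axis), for the 111 tested genes of the 7 lists (rows, with vertical scatter for sight alone), coloured by call. Of these genes 9 were called higher and 16 lower, and the 3 largest falls were those of Sulf2, Dpp4 and Gpc3.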

How the data were processed

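Total RNA of sorted ASCs (4 wild-type and 4 mfn2-/- libraries) was the input of a stranded pico-input library kit. Per the submitters' processing notes, Trim Galore, HISAT2, featureCounts, DESeq2 and mm9 were used, and their versions and the strand setting of the counting are not given in the sources used here. Per gene symbol the deposited table holds a signal, namely read counts that the authors divided by 1 size factor per library. Each value was a whole multiple of its library's smallest step (100% of values, tolerance 0.01), which gave the reads back. A read was worth 0.534 to 2.27 normalized reads, and weak genes were measured least precisely in the shallow libraries, wild-type replicate 1 and mfn2-/- replicate 4. No molecular identifiers were used in the counts.

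Genes with a mean of at least 10 were fitted as log2(value + 1) in limma 3.58.1 (R 4.3.3) with genotype alone and an intensity trend, two-sided, with Benjamini-Hochberg adjustment over 11754 genes at 0.05. A second limma fit had the interaction of genotype with the presence of Y-linked reads. For single library measures the two-sided exact permutation test ran over 70 arrangements. Tests were also run on simulated counts with 200 changed genes, all with a mean of at least 100. The simulated libraries shared 1 mean profile. Other cells and the low number of genes read in mfn2-/- replicate 4 were not modelled, so the simulation cannot vouch for the tests on these libraries. Alternatives were other pseudocounts, filters, scalings, terms, weights and thresholds, each library left out, and edgeR 4.0.16 and DESeq2 1.42.0 on recovered reads. The fit without the 2 shallowest libraries was chosen after seeing the data. The labels' replicate numbers were not used as pairs in the main fit.

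The surface genes, lists and tests were chosen with earlier results of these data known. Of each list, called genes with a mean of at least 100 were named, at most 4, largest log2 change first, plus partners named in advance. For each surface gene the 3 genes nearest in pattern were named. Exon lengths and overlaps are from GENCODE M21 (GRCm38), and promoters from RefSeq (GRCm38.p6). Antisense or overlapping genes share exons with Cd34, Sdc3, Vcam1, Itga7 and Ncam1, and their reads cannot be told apart if strand was not used in counting. Tables were made in Python 3.11.15.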

Additional observations from a re-analysis of the deposited data

Results flagged for a closer look

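In 6 of 102 comparisons of 4 libraries of a group, 1 library stood far from the other 3 by Dixon's ratio, where chance gives about 5.1. Cd34 was at 700.0 normalized reads in mfn2-/- replicate 4 and at 359 to 383 in the other 3. Sdc2 was at 0 in the same library and at 117 to 119 in the others. Gpc6 was at 46.6 in mfn2-/- replicate 2 and at 17.7 to 20.2 in the others. In wild-type replicate 1, Cxcr7 was at 512 against 230.3 to 246 and Itga4 at 15.9 against 60.1 to 66.97. Cd82 was at 1472 in wild-type replicate 3 against 1139 to 1185.

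The change of Chodl differed by 0.92 on the log2 scale between libraries with and without Y-linked reads, with the groups apart in opposite directions in each kind. The limma interaction test gave an adjusted p of 0.144, so the difference did not pass over all genes. Each kind holds 2 libraries per group, and the presence of Y-linked reads cannot be told apart from whatever else the pairs of libraries share.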

How the results depend on the processing

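The 5 called surface transcripts kept direction and call in all 23 alternatives, with log2 changes of -2.13 to -1.80 for Cd34, 3.06 to 3.24 for Cd24a, 1.92 to 2.28 for Sdc4, -2.16 to -1.91 for Sdc3 and 1.11 to 1.33 for Vcam1. Itga7 passed in 4, namely quantile normalization, Y-linked reads as a term, without wild-type replicate 4 and DESeq2 (lowest adjusted p 0.0275, highest 0.280 with no trend), and ran from -1.16 to -0.41. Chodl turned to 0.18 with library weights, 0.12 without mfn2-/- replicate 4, 0.069 without the 2 shallowest libraries and 0.054 with edgeR, and with each library left out it ran from -0.45 to 0.12. The cause was not tested. Related genes called higher (9) became 1 with no trend, 16 with library weights and 5 at an adjusted p under 0.01, and 5 to 8 with each library left out, 5 without mfn2-/- replicate 2. Those called lower (16) became 34 with library weights, 25 with DESeq2 and 9 at an adjusted p under 0.01, and 11 to 20 with each library left out.

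Over all genes, calls ran from 498 (adjusted p under 0.01) to 3037 (library weights), and were 633 with no trend (17.9% of them higher, against 38.5%), 671 without wild-type replicate 3 and 749 without wild-type replicate 4. Quantile normalization moved the median of all genes from -0.16 to 0.13. With the replicate block 1043 genes were called, and it changed no call of the 10 surface transcripts. Same-numbered samples correlated at -0.11 to 0.04, so no pairing by number was visible. Low correlations cannot show that the samples were unpaired. Weak genes are limited by depth in the 2 shallowest libraries.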
